A study of Mus musculus with 18 samples.

Results

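The genes described here are 37 genes of inflammatory signalling in *Atrx* WT and KO mesenchymal progenitor cells (MPCs). They comprise 9 CC chemokines, 6 CXC or CX3C chemokines, 1 scavenging chemokine receptor, 5 cytokines of the IL-6 family, 4 cytokines or receptors of the IL-1 family, 6 growth factors of blood and immune cells, RANKL (*Tnfsf11*) with its decoy receptor, and 4 NF-kB feedback or effector genes. They were selected by name for these roles, with earlier results of these data known. All 37 were found by Entrez identifier among the 24100 gene rows of each count table. The question was how the levels of these genes compare between WT and KO cells, and whether the polyA and the rRNA-depleted libraries give the same answer.

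RNA came from C3H/10T1/2, an established mouse mesenchymal progenitor line, in 18 libraries. Of these, 9 were prepared by polyA selection and 9 by removing rRNA. Both preparations had 3 libraries of the *Atrx* WT line, 3 of the *Atrx* KO clone made with guide sg5 (labelled G7) and 3 of the *Atrx* KO clone made with guide sg6 (labelled B10). The WT line had received the Cas9 plasmid with no guide, and each KO line grew from 1 sorted cell, so every group is a single line and n = 3 counts libraries of that line. Whether the libraries came from separate cultures is not stated, so p-values measure only the spread between these libraries, which may be technical. An effect of *Atrx* loss shared by both clones and a property of the WT line cannot be told apart here.

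Chemokines are small secreted proteins that guide leukocytes by engaging G protein-coupled receptors, and mesenchymal cells are a known stromal source of them. Many are induced when tumour necrosis factor, IL-1 or microbial products release NF-kB dimers from their inhibitor, IkBα, the product of *Nfkbia*. *Nfkbia* and *Tnfaip3* (A20) are themselves induced by NF-kB and shut the pathway down again, so they are often read as markers of its activity.

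Promoter sequence was examined for 25 of the 37 genes, those with an entry in the RefSeq promoter table of GRCm38.p6 (250 bases before to 50 after the start). The other 12 were *Ccl2*, *Ccl5*, *Ccl7*, *Ccl11*, *Clcf1*, *Cxcl5*, *Cxcl16*, *Il7*, *Il15*, *Il34*, *Tnfrsf11b* and *Tslp*. A narrow NF-kB motif (GGGA and TTCC with 2 bases of any kind between them, either strand) was found in 4 of 25 genes (16%), against 1.63% of all 27025 genes in the table. These were *Cxcl1*, *Il6*, *Nfkbia* and *Csf1*. The list was chosen to hold NF-kB target genes, so a higher share of this motif can come from that choice alone. A looser form (GGG and CC with 5 bases of any kind between them), which includes every narrow match, was found in 16 of 25 (64.0%) against 53.5%. The AP-1 motif TGANTCA, a site for Fos and Jun dimers that was added after the values had been seen, was found in 6 of 25 (24%) against 8.97%: *Ccl9*, *Il6*, *Il11*, *Lif*, *Tnfaip3* and *Tnfaip6*. A match describes the letters of this window and is not evidence of binding.

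The stretches around the narrow NF-kB motif, and around the AP-1 motif of *Tnfaip6*, are shown because these genes differ in what their RNA did below. They were picked after the values had been seen. The bases of the motif are in capitals, and each stretch reads 5′ to 3′ on the strand of its gene. *Cxcl1* lies at chr5:90891134-90891224 (plus strand, motif from base −71 to base −61 relative to the start, with 2 overlapping matches), *Il6* at chr5:30013050-30013099 (plus, from −44), *Nfkbia* at chr12:55492648-55492696 (minus, from −29), *Csf1* at chr3:107760594-107760643 (minus, from −154) and *Tnfaip6* at chr2:52037941-52038007 (plus, from −142).
Cxcl1: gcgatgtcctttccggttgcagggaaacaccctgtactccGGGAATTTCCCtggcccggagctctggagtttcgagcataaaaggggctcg
Il6: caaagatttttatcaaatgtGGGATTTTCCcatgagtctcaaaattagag
Nfkbia: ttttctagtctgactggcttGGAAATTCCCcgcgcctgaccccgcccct
Csf1: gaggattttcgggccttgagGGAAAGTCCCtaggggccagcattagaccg
Tnfaip6: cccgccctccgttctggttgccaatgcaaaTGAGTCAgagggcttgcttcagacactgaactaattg

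PolyA RNA totalled 27544833 to 80772108 counts per WT library, 161036799 to 235346363 per sg5 library and 58918732 to 71896907 per sg6 library, and rRNA-depleted RNA 20135336 to 33187136 per library. Levels are given as CPM, counts scaled to library size with TMM factors. *Atrx* itself was lower in both clones in polyA RNA, by log2 fold changes of −1.24 ± 0.10 (SE, sg5) and −1.20 ± 0.10 (sg6), with edgeR adjusted p-values of 5.04e-05 and 5.15e-05. All 9 mesenchymal markers (among them *Col1a1*, *Vim* and *Pdgfrb*) were measured, and their summed level was 20383 to 23276 CPM in WT, 23163 to 23697 CPM in sg5 and 27897 to 30691 CPM in sg6. One of them, *Thy1*, separated the clones: it was lower in sg5 (log2 fold change −1.73) and higher in sg6 (7.03). Macrophage and leukocyte markers were low. The pan-leukocyte gene *Ptprc* did not exceed 0.0699 CPM in any polyA library, and *Adgre1*, which marks macrophages, had 0 counts in all 9. The 10 genes of that list nevertheless summed to 24.98 to 30.5 CPM in WT, 15.2 to 18.6 CPM in sg5 and 17.0 to 19.0 CPM in sg6. In rRNA-depleted RNA the sums overlapped (23.8 to 39.5, 16.1 to 29.6 and 14.2 to 27.7 CPM). In polyA RNA *Lyz2* fell in both clones, from 11.98 ± 3.13 CPM in WT to 2.76 ± 0.268 and 4.12 ± 1.44 CPM, and *Csf1r* fell in sg5, whereas *Cd14* was at 9.07 ± 1.16, 8.996 ± 1.19 and 8.74 ± 1.17 CPM. Epithelial markers (6 genes) summed to 3.11 to 6.29 CPM in WT against at most 1.72 CPM in KO, and endothelial markers (6 genes) to 4.02 to 4.81 CPM in WT against 10.4 to 16.4 CPM in KO. That sum follows *Tek*, which rose in both clones, while *Pecam1* fell in both and *Vwf* in sg6. The part of any other cell type in the results was not tested, and in bulk RNA fewer cells of a type and less RNA per cell cannot be told apart.

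In polyA RNA, WT MPCs expressed most of the 37 genes at a measurable level. Counted per kilobase of exon, so that genes can be compared, *Cxcl12* was highest at 166 ± 13.5 CPM per kb (SD, n = 3), followed by *Ccl2* at 47.1 ± 25.3, *Csf1* at 34.4 ± 5.33, *Tnfrsf11b* at 33.5 ± 10.1 and *Ccl7* at 20.1 ± 8.14 CPM per kb. *Cxcl12*, which retains blood stem cells in the marrow, thus stood above the rest beyond its spread, whereas *Ccl2*, *Csf1* and *Tnfrsf11b* overlapped. At the other end, *Cxcl14* and *Tnfsf11*, the osteoclast-inducing ligand RANKL, had 0 counts in all polyA libraries. In both clones the order changed at the top: *Tnfrsf11b* followed *Cxcl12*, at 93.1 ± 5.81 in sg5 and 86.9 ± 17.8 CPM per kb in sg6, while *Ccl2* dropped to 3.71 ± 0.520 and 3.15 ± 0.444 CPM per kb.

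A set of chemokines was downregulated in both *Atrx* KO clones, most of all *Ccl2*, *Ccl5*, *Ccl7* and *Cxcl5*. These were joined by *Il18*, by the IL-33 receptor *Il1rl1* and by *Tnfaip6*, while *Tnfrsf11b*, the RANKL decoy receptor osteoprotegerin, was upregulated in both. The NF-kB feedback genes *Nfkbia* and *Tnfaip3* were not called in either clone. A gene was called when its edgeR quasi-likelihood adjusted p was below 0.05 and its log2 fold change was beyond 1. Of the 37 genes, 31 passed the filter on low counts in the polyA table. In sg5 versus WT, 7 of 31 were lower (22.6%, against 6.96% of the 15480 genes tested) and 1 was higher (3.23%, against 3.18%). In sg6 versus WT, 8 were lower (25.8%, against 7.54%) and 2 were higher (6.45%, against 3.64%). In both clones 7 were lower (22.6%, against 5.48%) and 1 was higher (3.23%, against 2.18%). The median log2 fold change of these 31 genes was −0.04 in sg5 and −0.20 in sg6, near the all-gene medians of −0.0024 and −0.0061. In rRNA-depleted RNA the 27 genes tested had medians of −0.32 and −0.49, against 0.0798 and 0.0377 over all genes, with 7 and 8 genes above 0. Filtering keeps a gene that is detected in WT alone, such as *Ccl5*, so these shares describe the genes that passed and not all 37. Both clones were compared with the same WT libraries. Because the genes were chosen with earlier results of these data known, the shares are no independent evidence of an excess.

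**Figure D1:**
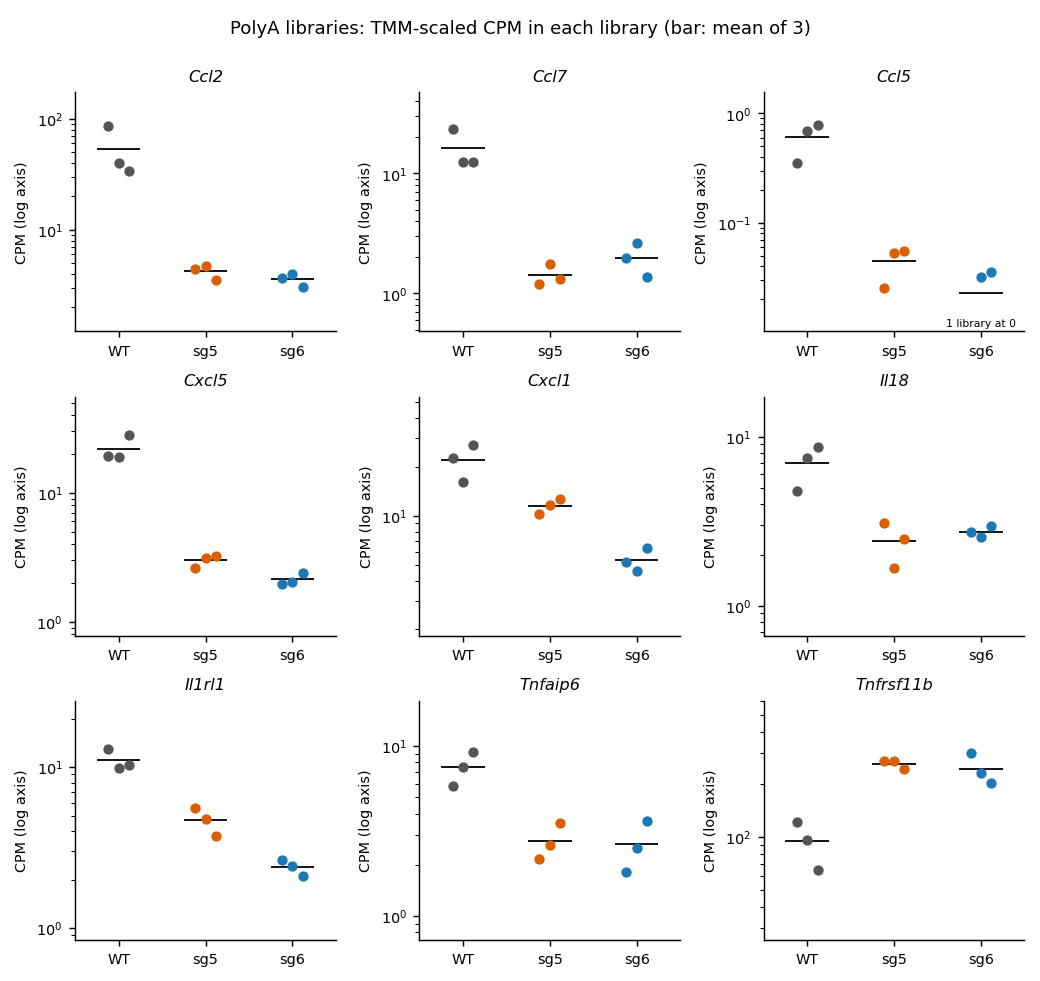
PolyA libraries: TMM-scaled CPM (log axis) of 9 genes in each library of WT, sg5 and sg6, with the mean of 3 libraries as a bar. Every KO library lies below every WT library for *Ccl2*, *Ccl7*, *Ccl5*, *Cxcl5*, *Cxcl1*, *Il18*, *Il1rl1* and *Tnfaip6* and above every WT library for *Tnfrsf11b*, and for *Cxcl1* and *Il1rl1* the sg6 libraries also lie below the sg5 libraries.

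Among the CC chemokines, 3 of the 6 tested fell in both clones. *Ccl2*, the monocyte attractant MCP-1, was at 86.6, 40.1 and 34.1 CPM in the WT libraries, at 4.43, 4.69 and 3.56 CPM in sg5 and at 3.68, 4.03 and 3.04 CPM in sg6. The lowest WT library was 7.27 times the highest KO library, although the WT libraries themselves differed 2.54-fold. Its log2 fold change was −3.66 ± 0.34 (SE, adjusted p = 0.000105) in sg5 and −3.90 ± 0.35 (adjusted p = 7.08e-05) in sg6. *Ccl7* (MCP-3), which shares receptors with *Ccl2* and lies next to it on chromosome 11, was at 23.6, 12.4 and 12.3 CPM in WT, 1.21, 1.77 and 1.31 CPM in sg5 and 1.97, 2.64 and 1.37 CPM in sg6. The groups did not overlap, and WT replicate 1 was the highest library for both genes. The log2 fold changes of *Ccl7* were −3.49 ± 0.34 (adjusted p = 0.000124) and −3.01 ± 0.34 (adjusted p = 0.000234).

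*Ccl5* (RANTES), an attractant of T cells and monocytes, was much rarer, so its counts are given. There were 10, 60 and 35 counts in the WT libraries, 4, 12 and 9 in sg5 and 0, 2 and 2 in sg6, although the sg5 libraries were the deepest. On the scaled level this was 0.349 to 0.778 CPM in WT and at most 0.0555 CPM in any KO library. *Ccl5* thus passed the filter on low counts through WT alone, so the filter had already favoured a fall. The fitted log2 fold changes were −3.76 ± 0.45 (adjusted p = 0.000385) and −4.78 ± 0.61 (adjusted p = 0.000501), and the second rests on 4 counts in the clone, so its size depends on the prior count of the fit.

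The other CC chemokines were not called. *Ccl9*, a chemokine of the CCL6 and CCL9 family of rodents, was at 18.7, 18.5 and 13.2 CPM in WT but at 54.4, 22.6 and 19.3 CPM in sg5 and 17.2, 15.6 and 14.3 CPM in sg6. Its difference in sg5 rested largely on replicate 1, with a log2 fold change of 0.94 ± 0.35 (adjusted p = 0.0768), and the value was 1.19 (adjusted p = 0.0352) without sg5 replicate 3 and 0.39 (adjusted p = 0.153) without replicate 1 of every line. *Ccl25*, a thymic and gut chemokine, varied little between libraries and was 5.57 to 6.70 CPM in KO against 7.73 to 8.10 CPM in WT. Its log2 fold change of −0.45 in sg5 passed on adjusted p (0.0142) but was far from the fold threshold. *Ccl17* stayed between 0.0872 and 0.225 CPM. *Ccl8*, *Ccl11* and *Ccl20* were too rare to test, with at most 8, 9 and 4 counts in a library. *Ccl8* had 2, 8 and 1 counts in WT and 0 in all sg5 libraries. Its WT mean was 3.63 times a floor of 3 counts per library in sg5. That floor covers counting error in sg5 only, and the WT mean itself rests on these few counts.

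Of the CXC and CX3C chemokines, *Cxcl5* fell in both clones and *Cxcl1* in sg6. Both attract neutrophils through CXCR2 and lie in the same cluster on chromosome 5. *Cxcl5* was at 19.3, 18.8 and 27.8 CPM in WT, at 2.63, 3.14 and 3.25 CPM in sg5 and at 1.95, 2.04 and 2.40 CPM in sg6. The groups were far apart, with the lowest WT library at 5.78 times the highest KO library. The log2 fold changes were −2.87 ± 0.18 (adjusted p = 1.26e-05) and −3.37 ± 0.19 (adjusted p = 6.51e-06). *Cxcl1* was at 22.8, 16.2 and 27.2 CPM in WT, at 10.3, 11.6 and 12.8 CPM in sg5 and at 5.18, 4.58 and 6.36 CPM in sg6. Here the 3 lines formed 3 separate levels. The log2 fold change was −2.04 ± 0.20 (adjusted p = 0.000129) in sg6 and −0.93 ± 0.20 (adjusted p = 0.00768) in sg5, the latter short of the fold threshold, which it passed at −1.12 without WT replicate 2 and at −1.01 without sg5 replicate 3.

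*Cxcl12* was at 1404, 1232 and 1438 CPM in WT, 1708, 1397 and 1223 CPM in sg5 and 1063, 848 and 950.0 CPM in sg6. WT and sg5 overlapped, and the sg6 libraries lay below both. The log2 fold change in sg6 was −0.51 ± 0.14 (adjusted p = 0.0215), within the fold threshold. *Ackr3*, the receptor that scavenges CXCL12, differed by −0.04 in sg5 and −0.22 in sg6, with 95% intervals of −0.44 to 0.36 and −0.62 to 0.18. *Cx3cl1* (fractalkine) was not called (−0.21 and −0.36), nor was *Cxcl16* (−0.54 and 0.26), which was below 1 CPM throughout.

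Of the 5 genes of the IL-6 family, edgeR called 0 lower in either clone in polyA RNA, although *Ctf1* was lower on adjusted p in both, and *Clcf1* was called higher in sg6. *Il6* itself was low, from 1.31 to 2.72 CPM in WT, and its log2 fold changes of 0.33 ± 0.39 and −0.11 ± 0.40 were smaller than their errors. *Il11* (−0.35 and −0.20) and *Lif* (0.21 and 0.10) were likewise not called. *Clcf1*, a ligand of the CNTF receptor, was at 39.4, 36.0 and 39.1 CPM in WT, 55.0, 62.3 and 57.4 CPM in sg5 and 89.4, 81.7 and 58.7 CPM in sg6. All KO libraries were above all WT libraries. Its log2 fold change of 1.01 ± 0.14 (adjusted p = 0.000824) in sg6 sat on the fold threshold and was 0.96, 0.87 and 0.95 without WT replicate 2, sg6 replicate 1 or sg6 replicate 2, and that in sg5 was 0.61 ± 0.14 (adjusted p = 0.0117). *Clcf1* shares 7.33% of its 31-base words with AC109138.7, a gene model on the same strand that it overlaps. *Ctf1* (cardiotrophin-1), which overlaps *Ctf2* on the opposite strand, was 4.53 to 6.57 CPM in KO against 7.75 to 10.5 CPM in WT, a log2 difference from WT of −0.71 in sg5 and −0.63 in sg6 (adjusted p = 0.0142 and 0.0213).

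In the IL-1 family, *Il18* and *Il1rl1* fell in both clones. *Il18*, an interferon-γ-inducing cytokine that is activated by inflammasomes, was at 4.75, 7.46 and 8.65 CPM in WT, 3.09, 1.66 and 2.48 CPM in sg5 and 2.72, 2.55 and 2.97 CPM in sg6. The highest KO library was below the lowest WT library by a factor of 1.54. The log2 fold changes were −1.54 ± 0.27 (adjusted p = 0.00319) and −1.35 ± 0.27 (adjusted p = 0.00540). The span of *Il18* overlaps *Bco2* and *Tex12* on the opposite strand, as do those of *Ccl2* (*Gm17268*), *Ccl25* (*Elavl1*) and *Il34* (*Gm15894* and *Gm15895*) with the genes named. Reads from shared exon sequence could not be told apart if the counting ignored strand, and overlap of exons was not examined. *Il1rl1* (ST2, the receptor of IL-33) was at 12.9, 9.92 and 10.2 CPM in WT, 5.54, 4.78 and 3.73 CPM in sg5 and 2.66, 2.43 and 2.11 CPM in sg6. As for *Cxcl1*, the 3 lines did not overlap and sg6 was lowest, with a log2 fold change of −1.23 ± 0.18 (adjusted p = 0.00122) in sg5 and −2.19 ± 0.19 (adjusted p = 5.43e-05) in sg6. Its ligand *Il33* was below 1 CPM, with log2 fold changes of 0.16 ± 0.66 and 0.74 ± 0.68, and 1.99 (adjusted p = 0.0378) in sg6 without WT replicate 3. *Il1r1*, the signalling receptor of IL-1, which lies on the same stretch of chromosome 1 as *Il1rl1*, was not called (0.12 ± 0.26 and −0.61 ± 0.26).

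None of the growth factors of blood and immune cells was called in either clone in the edgeR fit, and *Il34* in sg5 was the only one of the 5 tested that passed on adjusted p alone. *Csf1*, the main macrophage growth factor, was at 157 to 212 CPM in WT, 131 to 166 CPM in sg5 and 126 to 212 CPM in sg6. *Il34*, which acts on the same receptor as *Csf1*, was 4.45 to 7.82 CPM in WT and 2.68 to 3.98 CPM in sg5, with a log2 fold change of −0.82 ± 0.23 (adjusted p = 0.0279). In sg6 it overlapped WT (−0.28 ± 0.23). *Tslp* and *Il15* differed by 0.19 or less on the log2 scale, *Il15* with wide intervals. *Il7* gave 0.85 ± 0.53 and 0.90 ± 0.57 at levels up to 0.426 CPM, and *Csf2* (GM-CSF) had no more than 5 counts in a library and was not tested.

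*Tnfrsf11b* rose in both clones. It was at 122, 96.5 and 64.7 CPM in WT, 272, 271 and 243 CPM in sg5 and 300.3, 232 and 203 CPM in sg6. The lowest KO library was 1.67 times the highest WT library. The log2 fold changes were 1.48 ± 0.22 (adjusted p = 0.00133) and 1.38 ± 0.22 (adjusted p = 0.00159), close to each other, with a difference of 0.10 (95% interval −0.39 to 0.58).

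The NF-kB feedback and effector genes diverged. *Tnfaip6* (TSG-6), a secreted hyaluronan-binding protein that mesenchymal stromal cells release on inflammatory stimulation, was at 5.83, 7.56 and 9.25 CPM in WT, 2.16, 2.60 and 3.53 CPM in sg5 and 1.805, 2.49 and 3.64 CPM in sg6. All KO libraries were below all WT libraries, and the clones overlapped. The log2 fold changes were −1.45 ± 0.29 (adjusted p = 0.00598) and −1.52 ± 0.29 (adjusted p = 0.00440). *Nfkbia* was at 23.5, 20.2 and 24.4 CPM in WT, 23.6, 22.3 and 22.9 CPM in sg5 and 26.4, 23.5 and 25.1 CPM in sg6, with log2 fold changes of 0.02 (95% interval −0.19 to 0.23) and 0.14 (−0.07 to 0.35). Its groups overlapped, and both intervals lay well inside the fold threshold. *Tnfaip3* gave 0.14 ± 0.30 and −0.11 ± 0.30. *Ptgs2* (cyclooxygenase-2) was at 50.02, 29.7 and 33.6 CPM in WT, 50.8, 71.3 and 74.8 CPM in sg5 and 62.5, 69.1 and 57.0 CPM in sg6, with WT replicate 1 next to the lowest KO library. At 0.80 ± 0.21 and 0.74 ± 0.21 on the log2 scale (adjusted p = 0.0191 and 0.0240), it was short of the fold threshold. The sg5 value reached 1.06 without WT replicate 1.

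**Figure D2:**
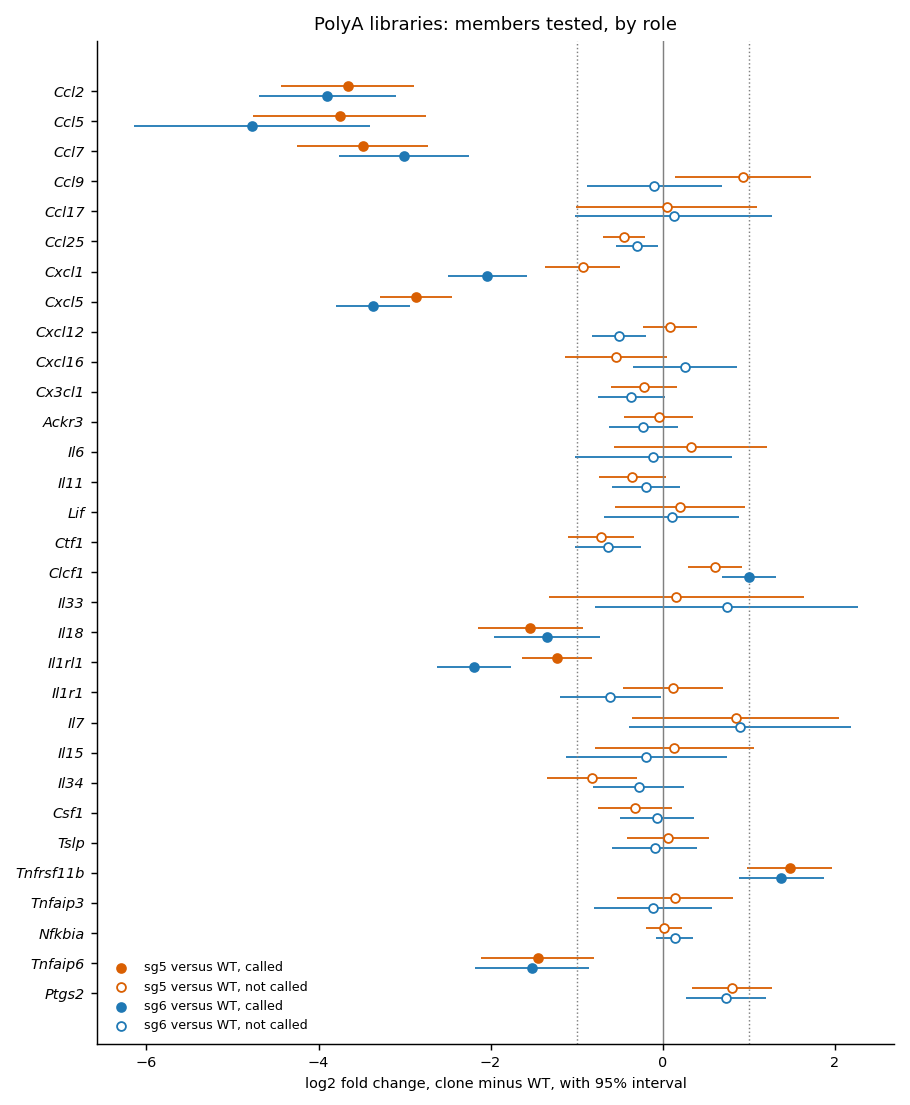
Log2 fold change of each clone against WT in polyA RNA (x axis, points, with 95% intervals as lines) for the 31 genes tested, ordered by role. Filled points passed adjusted p below 0.05 and a log2 fold change beyond 1 (dotted lines), and 10 genes, *Nfkbia* and *Csf1* among them, have intervals between the dotted lines in both clones.

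Across the 31 genes, the KO libraries all lay below the WT libraries for 10 genes and all above for 3, where 13.9% and 15.8% of all genes tested showed such separation downwards and upwards. Of the 4 genes with the narrow NF-kB motif printed above, *Cxcl1* was called lower in sg6, and *Il6*, *Nfkbia* and *Csf1* were called in neither clone. *Ccl2*, *Ccl5*, *Ccl7*, *Cxcl5* and *Tnfrsf11b*, all called in both clones, had no promoter entry. Motif and call therefore cannot be compared for them. For 10 genes the 95% interval lay within a log2 fold change of 1 in both clones, namely *Ackr3*, *Ccl25*, *Csf1*, *Cx3cl1*, *Cxcl12*, *Il11*, *Lif*, *Nfkbia*, *Tnfaip3* and *Tslp*. For the remaining genes that were not called, such as *Il33*, *Il7* and *Ccl17*, a change of that size lay within the interval of at least 1 clone.

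The clones were also compared directly, with sg5 minus sg6 as the difference. *Cxcl1* was the 1 of 31 genes called (3.23%, against 1.36% of genes higher in sg5), with a log2 difference of 1.11 ± 0.20 (adjusted p = 0.0127). Without sg5 replicate 3 or sg6 replicate 2 its adjusted p was 0.0506 and 0.0594. In sg5, 0 of 31 were called lower by edgeR (against 1.25%) and 0 by DESeq2, with 3 lower and 6 higher at an unadjusted p below 0.05. *Il1rl1* (0.96 ± 0.18, adjusted p = 0.0178) and *Cxcl12* (0.60 ± 0.14, adjusted p = 0.0417) differed on adjusted p and were likewise higher in sg5. For *Ccl2* the difference was 0.24 (95% interval −0.49 to 0.97), and for *Tnfaip6* it was 0.07 (−0.59 to 0.72).

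The rRNA-depleted libraries were made and counted separately, so their fold changes share no library with those above. *Ccl2*, *Cxcl5* and *Tnfaip6* were downregulated in both clones in these libraries too, and *Ccl7* in sg5. *Tnfrsf11b* was higher in both clones but short of the fold threshold. Here, 27 of the 37 genes passed the filter. In addition to the 6 genes not tested in polyA RNA, *Ccl5*, *Cxcl16*, *Il7* and *Il33* were too rare. In sg5 versus WT, 6 of 27 were lower (22.2%, against 4.31% of 13303 genes) and 0 higher (against 3.04%). In sg6 versus WT, 3 were lower (11.1%, against 3.59%) and 0 higher (against 2.16%). In both clones 3 were lower (11.1%, against 2.62%) and 0 higher (against 1.36%). Without the fold threshold, edgeR found *Tnfrsf11b* higher in each clone. At an unadjusted p below 0.05 it found 2 genes higher in each, with 8 lower in sg5 and 10 in sg6. DESeq2 called 0 higher in sg5 and 1 in sg6, *Clcf1*.

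**Figure D3:**
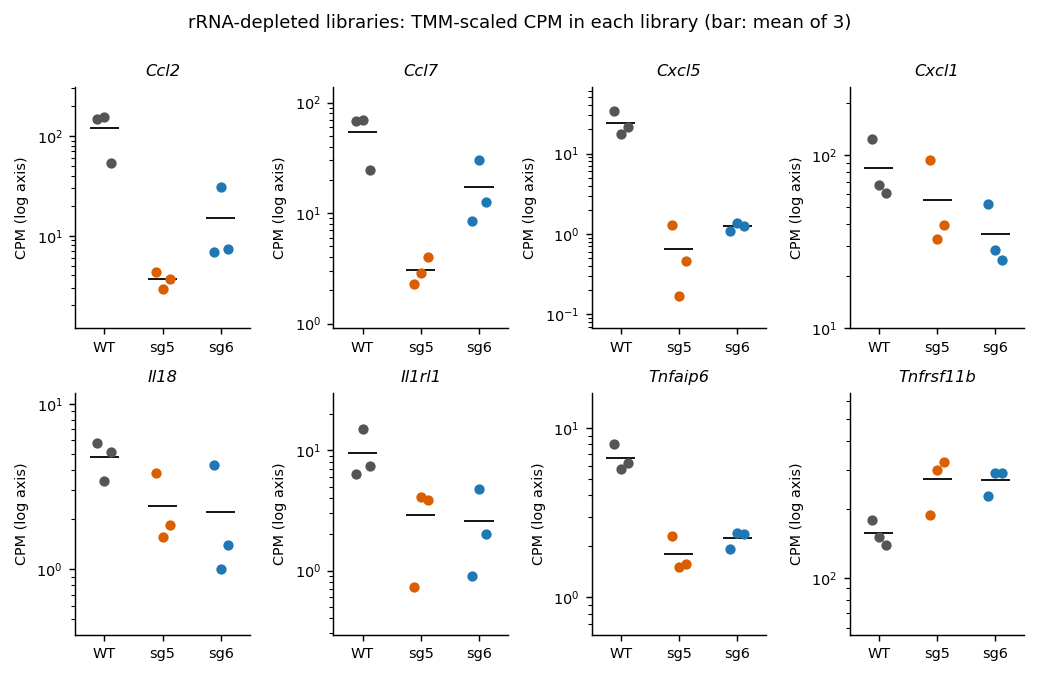
rRNA-depleted libraries: TMM-scaled CPM (log axis) of 8 genes in each library, with the mean of 3 libraries as a bar. *Ccl2*, *Cxcl5*, *Il1rl1* and *Tnfaip6* have no KO library reaching the lowest WT library, whereas for *Ccl7* 1 sg6 library at 30.5 CPM lies above the lowest WT library at 24.8 CPM.

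*Ccl2* was at 148, 156 and 53.1 CPM in WT, 4.31, 2.95 and 3.67 CPM in sg5 and 6.89, 30.7 and 7.27 CPM in sg6. All KO libraries were below all WT libraries, with sg6 replicate 2 above the rest of its group. The log2 fold change was −5.02 ± 0.59 (adjusted p = 0.000226) in sg5 and −2.99 ± 0.53 (adjusted p = 0.00574) in sg6. *Ccl7* was at 68.1, 69.6 and 24.8 CPM in WT, 2.271, 2.90 and 3.98 CPM in sg5 and 8.57, 30.5 and 12.6 CPM in sg6. In sg6 it overlapped WT, through the same library as *Ccl2*. It was lower in sg5 (−4.15 ± 0.50, adjusted p = 0.000266) and not called in sg6 (−1.65 ± 0.44, adjusted p = 0.0663). Without sg6 replicate 2, the sg6 value was −2.35 (adjusted p = 0.00419), and it also passed without WT replicate 3 (−2.01) or without sg5 replicate 1 (−1.62).

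*Cxcl5*, too, lay far below WT in both clones. It was at 34.0, 17.7 and 21.2 CPM in WT, 1.31, 0.167 and 0.464 CPM in sg5 and 1.08, 1.38 and 1.27 CPM in sg6, so the lowest WT library was 12.8 times the highest KO library. The log2 fold changes were −5.15 ± 0.47 (adjusted p = 2.88e-05) and −4.28 ± 0.44 (adjusted p = 8.46e-05). *Tnfaip6* was at 8.01, 5.75 and 6.24 CPM in WT, 2.31, 1.504 and 1.58 CPM in sg5 and 1.94, 2.38 and 2.37 CPM in sg6. Its log2 fold changes were −1.88 ± 0.27 (adjusted p = 0.000968) and −1.58 ± 0.26 (adjusted p = 0.00354), close to those in polyA RNA.

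In sg5, *Ctf1* and *Il34* also passed. *Ctf1* was at 8.52 to 10.3 CPM in WT and 4.35 to 4.91 CPM in sg5 (−1.04 ± 0.19, adjusted p = 0.00678), and it lost its call at −0.91, −0.98, −0.96 and −0.9999 without WT replicate 1, sg5 replicate 1, sg5 replicate 2 or sg6 replicate 1. *Il34* was at 4.205 to 5.16 CPM in WT and 1.45 to 2.20 CPM in sg5 (−1.38 ± 0.26, adjusted p = 0.00688), and its adjusted p was 0.0514 without WT replicate 2 and 0.0565 without sg5 replicate 2. Neither was called in sg6, where both had a log2 fold change of −0.49.

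The other genes that fell in polyA RNA were not called here in the main edgeR fit, although some alternatives called them. With 2 groups per fit, *Cxcl1* (−1.24, adjusted p = 0.0391) and *Il1rl1* (−1.85, adjusted p = 0.0487) were called lower in sg6. With no filter on low counts, *Cxcl1* was called lower in sg6 and *Il1rl1* in both clones. *Il1rl1* was at 6.35, 14.9 and 7.43 CPM in WT, 0.731, 4.12 and 3.87 CPM in sg5 and 0.905, 4.81 and 2.02 CPM in sg6. The groups did not overlap, but the sg5 libraries ran from 0.731 to 4.12 CPM, and the log2 fold changes of −1.73 ± 0.60 and −1.88 ± 0.60 had adjusted p-values of 0.145 and 0.148. *Il18* (−0.97 ± 0.48 and −1.10 ± 0.48) overlapped WT through replicate 1 of each clone. *Cxcl1* overlapped WT through replicate 1 of sg5 alone (−0.60 ± 0.39), and its sg6 libraries were all below WT (−1.26 ± 0.40, adjusted p = 0.138). In sg6, *Cxcl1* (−1.23) and *Il1rl1* (−1.84) were called without sg5 replicate 1, *Il1rl1* also without sg6 replicate 2 (−2.69), and *Il18* without sg6 replicate 1 (−1.96). With the replicate number as a block, *Cxcl1* (−1.26, adjusted p = 0.000277), *Il1rl1* (−2.07, adjusted p = 0.00344), *Il18* (−1.31, adjusted p = 0.0217) and *Ccl7* (−1.73, adjusted p = 0.0223) were called lower in sg6, which raised the count there from 3 to 7. *Tnfrsf11b* was at 179, 151 and 140.1 CPM in WT, 189.8, 299.9 and 325 CPM in sg5 and 229.8, 289 and 288 CPM in sg6, a log2 difference from WT of 0.79 ± 0.19 and 0.78 ± 0.19 (adjusted p = 0.0357 and 0.0469). Without sg5 replicate 1 the sg5 value was 1.03.

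*Nfkbia* again moved little, by −0.03 (95% interval −0.40 to 0.35) in sg5 and 0.15 (−0.23 to 0.52) in sg6, and *Tnfaip3* by 0.06 and 0.25. *Ptgs2* was at 156 to 170 CPM in WT, 102 to 188 CPM in sg5 and 121 to 298 CPM in sg6, with log2 fold changes of −0.12 and 0.37. *Ccl9* was at 155 CPM in sg5 replicate 1 and at 27.1 and 17.5 CPM in the other libraries of that clone, against 20.9 to 37.3 CPM in WT. *Clcf1* in sg6 had a log2 fold change of 1.02 ± 0.31 (adjusted p = 0.124), which passed without sg5 replicate 1 (1.06) or sg6 replicate 1 (1.29). The remaining genes tested, *Ccl17*, *Ccl25*, *Cxcl12*, *Cx3cl1*, *Ackr3*, *Il6*, *Il11*, *Lif*, *Il1r1*, *Il15*, *Csf1* and *Tslp*, were not called in either clone.

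Between the clones, *Ccl7* was the 1 of 27 genes called (3.70%, against 0.925% of genes lower in sg5), with a log2 difference of −2.50 ± 0.47 (adjusted p = 0.0313). By edgeR (against 0.556%) or by DESeq2, 0 of 27 were called higher in sg5, with 3 higher and 5 lower at an unadjusted edgeR p below 0.05. Without sg6 replicate 2 the difference of *Ccl7* was −1.79 (adjusted p = 0.0901), and it also lost its call without WT replicate 1, sg5 replicate 1 or sg5 replicate 2 (adjusted p = 0.0569, 0.0727 and 0.125). In polyA RNA the corresponding difference was −0.48 (95% interval −1.20 to 0.25). For 8 of 27 genes the KO libraries all lay below the WT libraries, and for 1 they all lay above (against 8.61% and 11.5% of all genes tested).

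**Figure D4:**
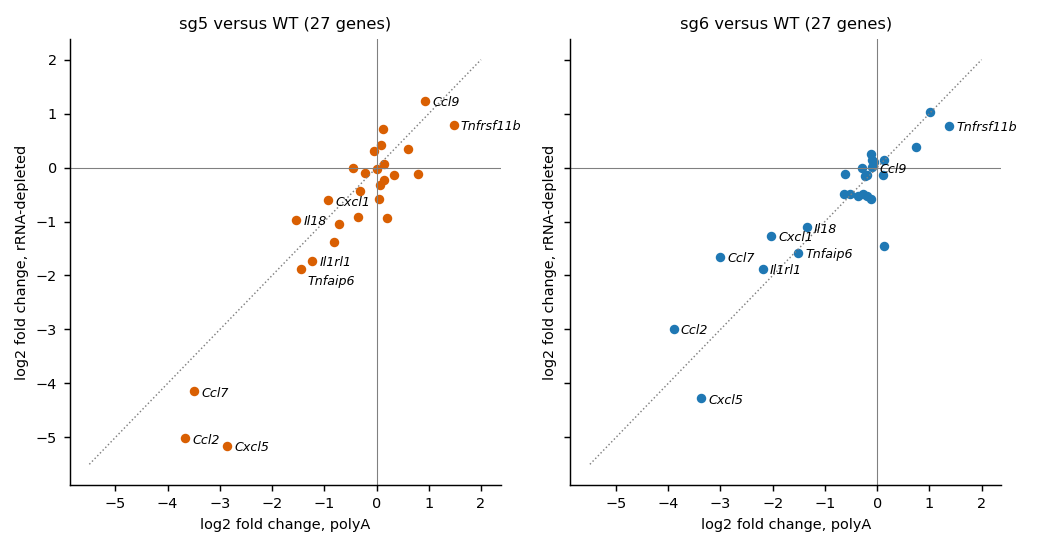
Log2 fold change in polyA RNA (x axis) against that in rRNA-depleted RNA (y axis) for the 27 genes tested in both, for sg5 (left) and sg6 (right). The dotted line marks equal values, and *Ccl2*, *Ccl7* and *Cxcl5* lie at the lower left in both panels, away from the cloud around 0.

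Over these 27 genes, the fold changes of the 2 kinds of library had a Pearson correlation of 0.931 in sg5 and 0.896 in sg6 (Spearman 0.798 and 0.805), and 19 and 21 genes had the same sign. Genes are not independent replicates, *Ccl2*, *Ccl7* and *Cxcl5* lie far from the other genes in both, and both kinds of library come from the same lines. For the difference between the clones it was 0.562 (Spearman 0.540), with 17 genes of the same sign.

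Position was looked at because 9 of the 37 genes lie on chromosome 11, 5 each on chromosomes 1 and 8 and 3 on chromosome 5. The median log2 fold change of all chromosome 11 genes was −0.26 in sg5 and −0.16 in sg6 in polyA RNA. Centred on its chromosome's median, *Ccl2* still differed by −3.40 and −3.74, and *Ccl5* by −3.50 and −4.62. Genes within 250 kb of the lowered ones were listed after these values had been seen. Around *Ccl2* (GRCm38, chr11:82035571-82037453, plus strand) and *Ccl7* (chr11:82045712-82047525, plus), they were the only 2 of 8 genes with enough polyA reads to test. Around *Cxcl5* (chr5:90759360-90761624, plus) and *Cxcl1* (chr5:90891241-90893115, plus), 3 of 8 tested genes were lower in both clones, *Cxcl5*, the platelet chemokine gene *Ppbp* and *Albfm1*, while *Ereg*, *Rassf6* and *Mthfd2l* were not. *Ppbp* and *Albfm1* were rare, at 0.487 ± 0.121 and 0.750 ± 0.200 CPM in WT. *Ppbp* passed the filter on low counts through WT alone, which favoured a fall. In rRNA-depleted RNA *Cxcl5* was the only 1 of 6 lower in both clones. There *Ppbp* was not tested and *Albfm1* was not called (−2.33 and −2.50, edgeR adjusted p = 0.0596 and 0.0545). Around *Ccl5* and *Ccl9*, *Ccl5* was the only 1 of 15 tested genes lower in both clones, *E230016K23Rik* was higher in sg5 (1.21, adjusted p = 0.00119), and *Ccl6* was higher in sg5 with a log2 fold change of 2.00 (adjusted p = 0.0464) that, as for *Ccl9*, came with sg5 replicate 1 at 5.95 CPM and the other sg5 libraries at 1.16 and 1.24 CPM. Around *Il1r1* and *Il1rl1*, *Il1rl1* was the only 1 of 6 in polyA RNA. *Il18rap*, an IL-18 receptor chain, gave −0.78 and −0.95 there and was lower in both clones in rRNA-depleted RNA (−4.82 and −3.20, adjusted p = 0.000189 and 0.00135).

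Other genes of the same pathways were read from the same fits. Of the 29 NF-kB pathway components, all tested in polyA RNA, 4 were lower in sg5, 1 in sg6 and 0 higher in either by edgeR, against 6.96% and 7.54% of all genes lower. At an unadjusted p below 0.05, 9 and 10 were lower and 6 and 7 higher, with medians of −0.07 and −0.06. The gene lower in both clones was *Traf1*, an adaptor of TNF receptors that is itself an NF-kB target, at 0.908 to 1.29 CPM in WT and at most 0.0482 CPM in KO (−5.19 ± 0.41 and −5.68 ± 0.51, adjusted p = 3.79e-05 and 7.01e-05). *Traf1* fell in both clones in rRNA-depleted RNA too, where all sg5 libraries had 0 counts. In polyA RNA it passed the filter on low counts through WT alone, so the filter had already favoured a fall. Of 30 other NF-kB inducible genes, 23 were tested, and 6 were lower in sg5 and 5 in sg6, against the same 6.96% and 7.54% of all genes, with 0 higher by edgeR (against 3.18% and 3.64%). At an unadjusted p below 0.05, 12 and 14 were lower and 2 and 4 higher, with medians of −0.52 and −0.57. The share of all genes at that threshold was not computed, so the unadjusted counts of both lists show no excess. Those lower in both clones were *Traf1*, which stands on both lists, the transcription factor *Irf1* (−1.02 and −1.01), the gelatinase *Mmp9* (−4.42 and −4.40, at a WT level of 0.907 ± 0.771 CPM) and the placental growth factor *Pgf* (−1.94 and −2.22). *Nfkb2*, *Relb*, *Bcl3*, *Birc3*, *Tnip1* and *Nfkbie* also stand on both lists, so the counts of the lists overlap.

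Of 34 cytokine and chemokine receptors, 26 were tested in polyA RNA, with 3 lower and 1 higher in sg5 and 2 lower in sg6 (medians 0.01 and −0.04), counts to be read against 6.96% and 7.54% of all genes lower and 3.18% higher in sg5. *Il2rg*, the common γ chain, fell from 2.91 to 3.004 CPM in WT to 0.391 to 0.546 CPM in KO (−2.66 ± 0.17 and −2.50 ± 0.18, adjusted p = 1.26e-05 and 2.15e-05), and also in rRNA-depleted RNA (−3.67 and −3.18). *Il11ra1*, the IL-11 receptor, stood at the fold threshold (−1.01 in each clone). Of 43 other chemokines and cytokines, 18 were tested, with 4 lower and 2 higher in sg5 and 4 lower and 1 higher in sg6 (medians −0.25 and −0.36), against the same shares of all genes and 3.64% higher in sg6. *Cxcl10* (−2.81 and −3.40), *Il12a* (−2.48 and −1.94), *Il16* (−1.28 and −1.64) and the death ligand *Tnfsf10* (−2.09 and −2.11) fell in both clones. *Il1rn*, the IL-1 receptor antagonist, rose. It was at 289, 219 and 153 CPM in WT, 1393 to 1829 CPM in sg5 and 921 to 1211 CPM in sg6, a log2 fold change of 2.82 (adjusted p = 4.70e-05) and 2.267 (adjusted p = 0.000123), and in rRNA-depleted RNA it rose by 2.86 and 2.20.

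In rRNA-depleted RNA the same lists gave, by edgeR, 3 lower in sg5 and 2 in sg6 of 28 NF-kB components tested, 5 and 3 lower of 19 other inducible genes, and 2 and 1 lower of 15 receptors, with 0 higher in each. At an unadjusted p below 0.05, 5 and 2 components were higher and 6 and 7 lower. For the other inducible genes 5 and 1 were higher and 7 and 7 lower, and for the receptors 3 and 2 were higher and 4 and 3 lower. Of 7 other chemokines and cytokines, 1 was lower in sg5 and 2 in sg6, and *Il1rn* was the 1 higher in each. The medians there were 0.17 and 0.12 for the NF-kB components and 0.01 and −0.14 for the other inducible genes. These medians cover fewer genes than those in polyA RNA. Of all genes, 4.31% and 3.59% were lower in sg5 and sg6 there, and 3.04% and 2.16% higher.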

How the data were processed

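RNA-seq of *Atrx* WT, sg5 and sg6 MPCs was analysed from 2 count tables. For the polyA libraries the authors trimmed reads with Rfastp, quantified them with Salmon against mm10 known genes and imported them with tximport, so the deposited values are estimated counts per gene, already whole numbers. rRNA-depleted reads were aligned by the authors with STAR, who then counted genes and transposable element loci in TElocal, so the deposited values are raw counts. The tool versions and the strand setting of the counting are not given consistently in the sources used here. No value was replaced or imputed.

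Of 24100 gene rows, 24045 matched a symbol by Entrez identifier. Each table was fitted separately with edgeR 4.0.16 in R 4.3.3 (filterByExpr, TMM scaling, quasi-likelihood test, 3 groups of 3 libraries). The polyA fit covered 15480 genes, and the rRNA-depleted fit 56086 features, of which 13303 were genes and 42783 transposable element loci. P-values were adjusted by Benjamini-Hochberg over all features of a fit, with a gene called at an adjusted p below 0.05 and a log2 fold change beyond 1. Counts at an unadjusted p below 0.05 have no share of all genes beside them, because that share was not computed. CPM values were TMM-scaled. Counts limit precision as given beside rare genes, and floors of 3 counts cover only the counting error of the line without counts. Values in every library were to be given for members called in the same direction in both clones, or between the clones, in polyA RNA, and related genes were named when called in both clones in polyA RNA. Promoters were to be printed for members called in both clones in both kinds of library, or for neighbours in a chemokine cluster. Values per library of *Ccl9*, *Clcf1*, *Ptgs2*, *Nfkbia* and *Cxcl12*, and the promoters of *Il6*, *Nfkbia* and *Csf1*, were added after values were seen. The genes and lists were chosen with earlier results of these data known, so they are no independent evidence. Positions are from GENCODE vM21 (GRCm38) and promoters from RefSeq (GRCm38.p6). Alternatives were DESeq2 1.42.0, other scalings and filters, thinned counts, a replicate block, 2 groups per fit, a test against the fold threshold (glmTreat) and leaving out libraries. The fitting code was tested on simulated data. Replicate numbers were checked by correlating the deviations of same-numbered libraries from their group means. In rRNA-depleted RNA of WT and sg6 these were 0.364, 0.544 and 0.114, all above 0.1, so blocked values are given beside that comparison where they change a call. Those of sg5 and sg6 were also all above 0.1 in both kinds of library, and the block changed no call between these clones. Differently numbered libraries of different lines correlated at −0.605 to 0.555 in rRNA-depleted RNA, so high values were not limited to same-numbered ones. The labels do not state a pairing.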

Additional observations from a re-analysis of the deposited data

Results flagged for a closer look

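The clones differed from each other in the same comparison with WT for 4 genes, by edgeR's quasi-likelihood test of sg5 minus sg6 with Benjamini-Hochberg adjustment. In polyA RNA these were *Cxcl1*, with a log2 difference of 1.11 (adjusted p = 0.0127), *Il1rl1*, with 0.96 (adjusted p = 0.0178), and *Cxcl12*, with 0.60 (adjusted p = 0.0417). For each of the 3, all 3 sg5 libraries were above all 3 sg6 libraries. In rRNA-depleted RNA the gene was *Ccl7*, with −2.50 (adjusted p = 0.0313), lower in all 3 sg5 libraries than in all 3 sg6 libraries. The same differences in the other kind of library were 0.66 for *Cxcl1* (adjusted p = 0.717), 0.15 for *Il1rl1* (adjusted p = 0.976), 0.92 for *Cxcl12* (adjusted p = 0.164) and −0.48 for *Ccl7* (adjusted p = 0.539). These genes were 3 of 31 tested in polyA RNA and 1 of 27 in rRNA-depleted RNA, at an adjusted p below 0.05 with no fold threshold. The share of all genes at that threshold was not computed, so their number shows no excess. Why the clones differ was not tested.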

How the results depend on the processing

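For genes called in both clones or between the clones in polyA RNA, 26 calls were followed through the alternatives. None of the 26 reversed, but over all alternatives a call was lost 22 times and kept 500 times, with 10 lost by glmTreat. Not among the 26 were *Clcf1* in sg6 (polyA), and *Ctf1* and *Il34* in sg5 (rRNA-depleted). They kept their calls in 8 of 20, 12 of 21 and 18 of 21 settings. Calls named for other genes (*Atrx*, markers, neighbours and related lists) were not recomputed. *Ccl2*, *Ccl7* and *Cxcl5* in polyA RNA were lower in both clones in all 20 settings, and *Ccl5* in all 18 that could test it. Without replicate 1 of every line and with the chromosome-centred values, both chosen after seeing the data, *Ccl2* in sg6 of the rRNA-depleted libraries was no longer called in the first (−2.43, adjusted p = 0.0610).

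In polyA RNA, the 7 genes lower in sg5 became 11 with no minimum fold and 4 by glmTreat. The 1 higher in sg5 became 3 with no minimum fold, 0 by glmTreat, 2 without replicate 1 of every line and 1 to 2 on leaving out single libraries. The 2 higher in sg6 became 0 by glmTreat, 1 to 3 on leaving out single libraries, and 1 with DESeq2, median-of-ratios scaling, at least 10 counts in every library, 2 groups per fit, thinned counts, chromosome centring, the replicate block or without replicate 1 of every line. The 1 higher in sg5 than in sg6 became 3 with no minimum fold, 2 with DESeq2, 0 by glmTreat, 0 without replicate 1 of every line and 0 to 2 on leaving out single libraries. In rRNA-depleted RNA, the 0 higher in sg5 became 1 with no minimum fold, with no filter and without replicate 1 of every line, and 0 to 1 on leaving out single libraries. The 0 higher in sg6 became 1 with no minimum fold, DESeq2, no filter or 2 groups per fit, 2 without replicate 1 of every line and 0 to 1 on leaving out single libraries. The 3 lower in sg6 became 6 with no filter, 5 with 2 groups per fit, 7 with the replicate block and 3 to 6 on leaving out single libraries. Between the clones, the 0 higher became 1 with no filter, 2 without replicate 1 of every line and 0 to 1 on leaving out single libraries, and the 1 lower became 2 with no filter, 0 with at least 10 counts, 2 groups per fit, glmTreat, gene rows alone or without replicate 1 of every line, and 0 to 2 on leaving out single libraries. The cause of these changes was not tested.

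Same-numbered libraries are not stated to be paired, and over all lines their deviations correlated at 0.260 on average in polyA RNA (lowest 0.0257) and 0.294 in rRNA-depleted RNA (lowest −0.229). With the replicate block, *Ccl7*, *Cxcl1*, *Il18* and *Il1rl1* joined the genes lower in sg6 of the rRNA-depleted libraries, and *Il18* and *Il1rl1* those lower in sg5, which then numbered 8.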

Other observations

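The following genes were picked out of the NF-kB component list after their values had been seen. *Relb*, a partner of p52, had log2 fold changes of −0.94 in sg5 and −0.87 in sg6 (edgeR adjusted p = 0.00173 and 0.00229). *Nfkb2*, which encodes the p52 precursor, had −0.72 and −0.66 (adjusted p = 0.000910 and 0.00121), and *Nfkbie*, which encodes the inhibitor IkBε, had −0.86 and −0.93 (adjusted p = 0.000480 and 0.000290). In each of the 3, all KO libraries were below all WT libraries. *Chuk*, which encodes the kinase IKKα, went the other way, at 63.4 to 82.8 CPM in KO and 48.0 to 62.5 CPM in WT (0.46 and 0.31, adjusted p = 0.0199 and 0.0785). So did *Nfkbiz*, at 13.0 to 17.5 CPM in KO and 8.96 to 12.5 CPM in WT. Over the whole component list, 6 genes were higher and 9 lower in sg5 at an unadjusted edgeR p below 0.05, and 7 and 10 in sg6. *Birc3*, an inhibitor of apoptosis induced by NF-kB, fell in sg5 (−1.36, adjusted p = 0.000436) and was at −0.64 in sg6.

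The LIF receptor gene *Lifr*, also picked after its values had been seen, separated the clones in polyA RNA: it was 9.18 to 12.5 CPM in sg5, 20.3 to 20.7 CPM in WT and 22.5 to 29.6 CPM in sg6, with a log2 difference of −1.31 between sg5 and sg6 (adjusted p = 0.000746). In rRNA-depleted RNA that difference was −0.18 (adjusted p = 0.906).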
